A study of Homo sapiens with 8 samples.

Results

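The metalloproteinase genes described here are those whose symbol opens with MMP, ADAM, ADAMTS or ADAMTSL followed by a digit, together with the TIMP genes of their inhibitors, with antisense and divergent transcripts left out. The rule found 35 genes among the 13771 of the expression table. They were 9 MMP genes, 3 TIMP genes, 10 ADAM genes, 10 ADAMTS genes and 3 ADAMTSL genes. The collagenases and stromelysins, and also MMP9 and TIMP4, were not in the expression table and so were not analysed here. RNA was sequenced from MCF10A, a non-tumorigenic human breast epithelial line, and from DCIS.COM, a relative of MCF10A that grows in mice as ductal carcinoma in situ. Each line had been transduced with the lentiviral vector pCDH-HOTAIR, which carries the long noncoding RNA HOTAIR, or with pCDH-empty as control. All cells had been selected with puromycin. Every one of the 4 groups held 2 libraries, so that 8 libraries were compared. Whether the transduced cells were pools or grew from single clones is not given in the sources used here. MCF10A was grown with epidermal growth factor, hydrocortisone, insulin and cholera toxin added to horse serum, and DCIS.COM with horse serum alone, so that line and medium cannot be told apart in any comparison between the lines.

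MMPs are zinc enzymes that cut matrix proteins and many proteins at the cell surface. They are made as inactive proenzymes, and the TIMPs block them once active. MMP14, a membrane-anchored enzyme, activates the gelatinase MMP2 with the help of TIMP2, and it is a well known enzyme of matrix invasion in breast carcinoma. ADAMs are membrane-bound relatives of which many release, or shed, the outer part of growth factors, cytokines, Notch and cadherins. ADAMTS enzymes are secreted and cut proteoglycans, procollagen and other matrix proteins, while ADAMTSL proteins resemble them without the protease part.

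The recovered reads ran from 19306864 to 34884841 per library. HOTAIR itself was at 1.44 to 1.5 CPM (read counts scaled to a common library size) in MCF10A pCDH-empty and 238 to 242 CPM in MCF10A pCDH-HOTAIR. In DCIS.COM it was at 3.96 to 5.22 CPM with the empty vector and 190 to 202 CPM with the HOTAIR vector. Every library thus matched the vector named in its label. All 8 markers of basal mammary epithelium were detected in every group, with a summed level of 11000 to 12500 CPM in MCF10A and 3540 to 4250 CPM in DCIS.COM. The keratins carried most of this sum in MCF10A, while EPCAM (log2 CPM 5.75 to 6.13 against 8.29 to 8.53), ITGB4 (8.25 to 8.57 against 10.33 to 10.68) and TP63 (3.56 to 4.14 against 4.28 to 4.91) were higher in every DCIS.COM library. Of 8 fibroblast markers, FAP was the one in the table, at 80.2 to 103 CPM in MCF10A and 0.565 to 1.34 CPM in DCIS.COM. Of 4 endothelial markers the table held PECAM1, at 1.70 to 2.69 CPM in MCF10A and 10.1 to 13.3 CPM in DCIS.COM. Of 4 leukocyte markers it held CD68 and CD14, together 41.4 to 47.1 CPM in MCF10A and 5.63 to 6.55 CPM in DCIS.COM, and none of these markers was at 0 in a group. The part of these marker differences in the comparisons between lines was not tested. DCIS.COM pCDH-empty 1 stood apart from the other DCIS.COM libraries. Its distance over all genes to its own replicate was 46.4, while that replicate lay 28.7 and 30.1 from the HOTAIR libraries, and the RN7SL1 and RN7SL2 RNAs took 18.9% of its reads against 12.5% to 13.8% in the other 3.

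MMP14 was the family gene called with HOTAIR in DCIS.COM, and MMP7 was the most abundant MMP transcript of that line per length. The 250 bases before their start sites in RefSeq, placed in GRCh37 by an exact match, are shown for this reason. In MMP14 the capitals mark CACGT, the reverse complement of the hypoxia factor core ACGTG, and in MMP7 they mark TGAGTCA, the site bound by AP1 transcription factors. The MMP14 stretch is chr14:23305544-23305793 on the plus strand, and that of MMP7 is chr11:102401479-102401728 on the minus strand, both written 5′ to 3′.
MMP14: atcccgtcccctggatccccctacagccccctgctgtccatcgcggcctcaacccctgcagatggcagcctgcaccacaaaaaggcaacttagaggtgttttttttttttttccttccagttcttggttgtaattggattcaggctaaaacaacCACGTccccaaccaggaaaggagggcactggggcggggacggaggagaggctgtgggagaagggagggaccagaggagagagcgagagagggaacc
MMP7: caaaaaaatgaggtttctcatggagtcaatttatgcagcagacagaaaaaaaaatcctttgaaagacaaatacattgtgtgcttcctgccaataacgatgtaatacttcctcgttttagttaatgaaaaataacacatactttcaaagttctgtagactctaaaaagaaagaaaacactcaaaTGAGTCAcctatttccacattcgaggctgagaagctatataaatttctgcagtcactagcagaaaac
The core ACGTG, searched on both strands, first occurred 96 bases before the start of MMP14 and was held by 7 of the 23 member promoters with an entry, or 30.4%, against 18.7% of 27305 promoters of the same length and 23.2% of the 10492 that belong to genes of the expression table. Beside MMP14 these were ADAM10, ADAM12, ADAM17, ADAMTS3, ADAMTS6 and TIMP1. The AP1 letters TGAGTCA, searched on both strands, lay 67 bases before the start of MMP7 and in no other member promoter, against 4.16% of all promoters and 2.71% of those of genes in the table. These matches describe the letters alone, and no binding was measured.

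The question of the first comparison was which family genes differ with HOTAIR in DCIS.COM. MMP14 rose 1.54-fold, and it was the single member to pass the test. The gelatinase gene MMP2 and MMP28, which encodes epilysin, an MMP of keratinocytes and other epithelia, were also higher in both HOTAIR libraries, by 1.61-fold and 1.62-fold, without passing it. A gene was called at a limma p-value, adjusted by the Benjamini-Hochberg method over all 13771 genes, under 0.05 together with a fold change of at least 1.5. Of all genes 0.0871% were called in DCIS.COM. At an unadjusted p under 0.05 there were 13 members (37.1%), against 17.5% of all genes. Of these, 8 were higher with HOTAIR, against 9.08% of all genes, and 5 were lower, against 8.41%. The lower ones included MMP19, which had 1 and 2 reads in DCIS.COM pCDH-empty and 0 and 0 in DCIS.COM pCDH-HOTAIR. The median log2 difference of the 35 members was 0.15, against 0.0104 over all genes.

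**Figure D1:**
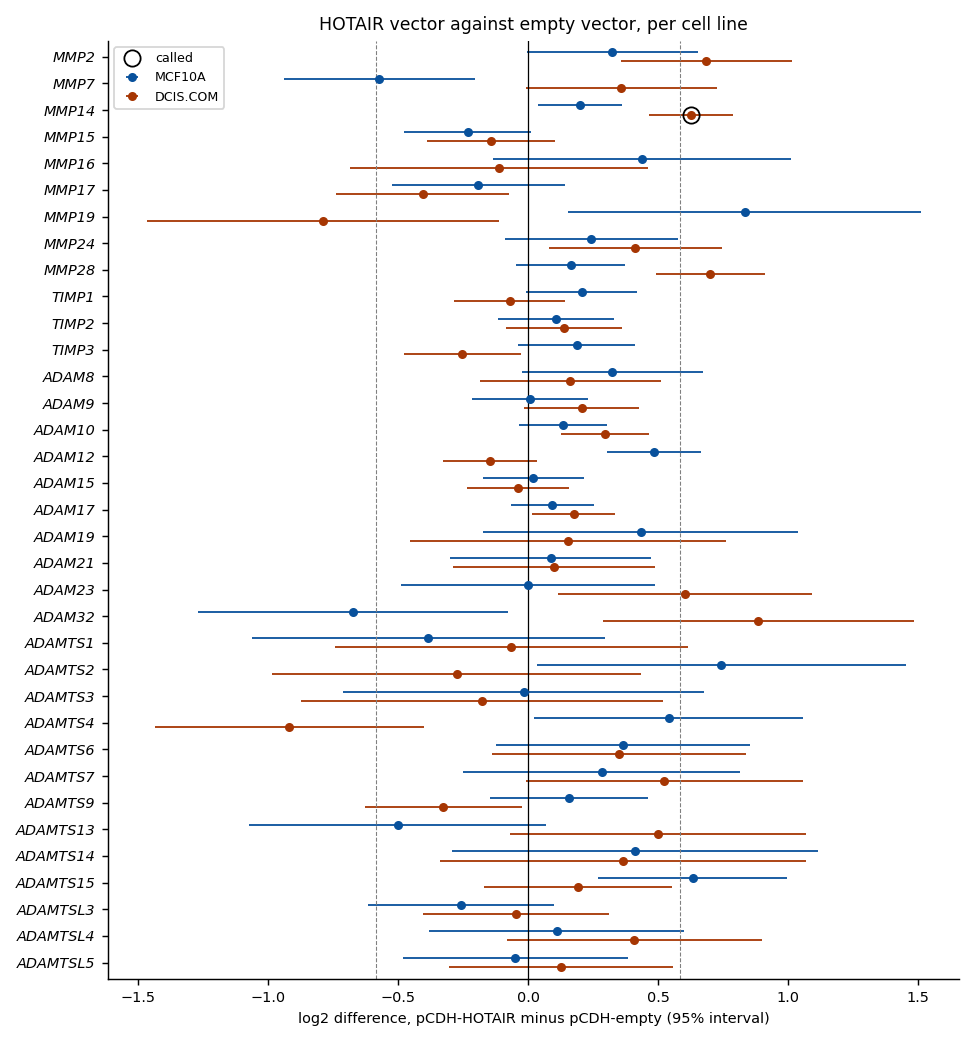
Log2 difference between pCDH-HOTAIR and pCDH-empty libraries (horizontal axis) for the 35 genes in MCF10A (blue) and DCIS.COM (brown), with 95% intervals from limma; dashed lines mark a fold change of 1.5 and the circle the called gene. The interval of MMP14 in DCIS.COM ran from 0.46 to 0.79, and intervals of genes with few reads, such as MMP19 and ADAMTS2, were wide and depend on the constant added before the log.

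MMP14 (chromosome 14, 23305769 to 23318250, plus strand, GRCh37) had log2 CPM values of 5.30 and 5.44 in DCIS.COM pCDH-empty and 6.03 and 5.96 in DCIS.COM pCDH-HOTAIR, from 1185, 1159, 2323 and 2085 reads. In MCF10A it was at 7.14 and 7.18 with the empty vector and at 7.34 and 7.38 with HOTAIR. The groups did not overlap in either line, and all 4 MCF10A libraries lay above all 4 DCIS.COM libraries. The log2 difference was 0.63 (SE 0.070, adjusted p = 0.0271) in DCIS.COM and 0.20 (SE 0.070, adjusted p = 0.569) in MCF10A. The difference between these effects, tested as an interaction, was 0.43 on the log2 scale (unadjusted p = 0.00269, adjusted p = 0.302). Without DCIS.COM pCDH-empty 1 the log2 difference in DCIS.COM was 0.56 with an adjusted p of 0.00339, and the fold change then fell below 1.5. Without either HOTAIR library it was 0.59 or 0.66, and the adjusted p was 0.536 or 0.335. The call was also lost without the mean-variance trend (adjusted p = 0.113) and with DCIS.COM fitted alone (adjusted p = 0.553).

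MMP2 (chromosome 16, 55423612 to 55540603, plus strand) encodes a secreted gelatinase that also cuts type IV collagen of basement membranes. Its log2 CPM was 2.50 and 2.56 in DCIS.COM pCDH-empty and 3.29 and 3.14 in DCIS.COM pCDH-HOTAIR, and in MCF10A 4.30 and 4.72 with the empty vector and 4.80 and 4.87 with HOTAIR. Both HOTAIR libraries were above both controls in each line, with a log2 difference of 0.68 (SE 0.142, unadjusted p = 0.00139, adjusted p = 0.147) in DCIS.COM and 0.32 (SE 0.142, adjusted p = 0.694) in MCF10A. Over the alternatives without a library left out, the adjusted p of MMP2 in DCIS.COM ran from 0.0575 to 0.553.

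MMP28 (chromosome 17, 34083268 to 34122711, minus strand) had log2 CPM values of 1.5 and 1.32 in DCIS.COM pCDH-empty and 2.16 and 2.07 in DCIS.COM pCDH-HOTAIR, from 83, 65, 156 and 138 reads. In MCF10A the values were 6.86 and 6.85 with the empty vector and 7.04 and 6.99 with HOTAIR. The HOTAIR libraries were again the higher ones in both lines. The log2 difference was 0.70 (SE 0.091, adjusted p = 0.0561) in DCIS.COM and 0.16 (SE 0.091, adjusted p = 0.801) in MCF10A. MMP28 passed the threshold in DCIS.COM with a correction for GC content (adjusted p = 0.00386) and with a mean CPM of at least 2 required. These were 2 of the 9 alternatives without a library left out, and the adjusted p in the others reached 0.553. With each DCIS.COM library left out in turn, the log2 difference ran from 0.61 to 0.79.

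**Figure D2:**
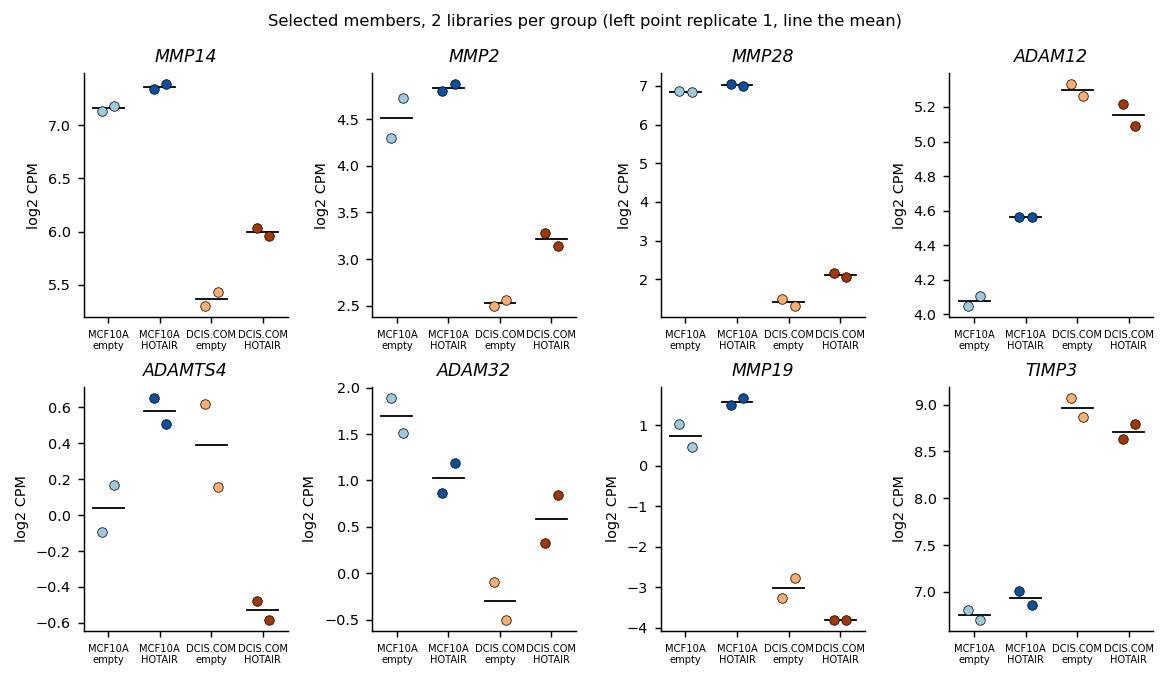
Log2 CPM (vertical axis) of 8 members in the 4 groups; points are libraries and lines are group means. MMP14, MMP2 and MMP28 lie higher in HOTAIR than in control libraries of both lines and higher in MCF10A than in DCIS.COM, while ADAMTS4, TIMP3 and ADAM12 lie higher with HOTAIR in MCF10A and lower in DCIS.COM, and ADAM32 the other way round. The DCIS.COM points of MMP19 stand for 0 to 2 reads.

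Of the remaining 6 MMP genes, MMP24, MMP17 and MMP19 had an unadjusted p under 0.05 in DCIS.COM. MMP24, a membrane-type MMP best known from neural tissue, was at 2.07 and 2.40 log2 CPM with the empty vector and 2.69 and 2.61 with HOTAIR in DCIS.COM, and at 3.15 and 3.18 against 3.52 and 3.30 in MCF10A. MMP17, which is held in the membrane by a lipid anchor, was at 2.09 and 2.33 against 1.70 and 1.91 in DCIS.COM, and at 2.72 and 2.59 against 2.42 and 2.50 in MCF10A. Both HOTAIR libraries were thus above the controls for MMP24 and below them for MMP17 in each line, with log2 differences in DCIS.COM of 0.41 (adjusted p = 0.249) and -0.40 (adjusted p = 0.251). With DCIS.COM pCDH-empty 1 left out these were 0.24 and -0.52. MMP19, an MMP of broad matrix specificity, had 1 and 2 reads in DCIS.COM pCDH-empty and 0 and 0 in DCIS.COM pCDH-HOTAIR. At this depth no difference in DCIS.COM could be read from it. In MCF10A it was at 1.02 and 0.47 log2 CPM with the empty vector and 1.49 and 1.67 with HOTAIR (61, 35, 53 and 62 reads, adjusted p = 0.573).

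Among the ADAM genes, 4 of 10 had an unadjusted p under 0.05 in DCIS.COM, all higher with HOTAIR, against 17.5% of all genes, or 9.08% on the higher side. ADAM10, a main sheddase of Notch and cadherins, was at 7.18 and 7.37 log2 CPM with the empty vector and 7.58 and 7.56 with HOTAIR in DCIS.COM, and at 7.63 and 7.69 against 7.78 and 7.81 in MCF10A. ADAM17, which releases tumour necrosis factor and ligands of the EGF receptor, was at 6.41 and 6.57 against 6.65 and 6.69 in DCIS.COM, and at 6.31 and 6.28 against 6.38 and 6.40 in MCF10A. The differences of both sheddases were small, with log2 differences in DCIS.COM of 0.29 (SE 0.073, adjusted p = 0.194) and 0.17 (SE 0.069, adjusted p = 0.273). Without DCIS.COM pCDH-empty 1 these were 0.20 and 0.10. ADAM23, a member without protease activity known from neurons, had 105 and 92 reads in DCIS.COM pCDH-empty, 188 and 178 in DCIS.COM pCDH-HOTAIR and 0 in all 4 MCF10A libraries. Its log2 CPM in DCIS.COM was 1.83 and 1.81 against 2.42 and 2.43, a log2 difference of 0.60 (SE 0.211, adjusted p = 0.250).

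ADAM32, which likewise lacks an active protease site, was at -0.09 and -0.50 log2 CPM with the empty vector and 0.33 and 0.85 with HOTAIR in DCIS.COM, and in MCF10A at 1.89 and 1.51 against 0.87 and 1.18. HOTAIR libraries were thus above the controls in DCIS.COM and below them in MCF10A. The log2 differences were 0.89 (SE 0.258, adjusted p = 0.222) and -0.67 (SE 0.258, adjusted p = 0.603), and 17 to 113 reads stood behind each value.

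Among the ADAMTS genes, ADAMTS4 and ADAMTS9 had an unadjusted p under 0.05 in DCIS.COM, both lower with HOTAIR. ADAMTS4, an aggrecanase, had log2 CPM values of 0.62 and 0.16 with the empty vector and -0.48 and -0.58 with HOTAIR in DCIS.COM, and -0.09 and 0.17 against 0.65 and 0.51 in MCF10A, from 20 to 44 reads per library. Neither pair of groups overlapped, and the directions were opposite. The log2 difference was -0.92 (SE 0.224, adjusted p = 0.186) in DCIS.COM and 0.54 (SE 0.224, adjusted p = 0.647) in MCF10A. Without DCIS.COM pCDH-empty 1 the value in DCIS.COM was -0.69. ADAMTS9, a proteoglycan-cutting enzyme, was at 2.10 and 2.22 against 1.95 and 1.72 in DCIS.COM (adjusted p = 0.274) and at 3.71 and 3.91 against 4.01 and 3.92 in MCF10A.

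The TIMP genes did not pass the test in either line. TIMP1, a secreted inhibitor of most MMPs that is weak against membrane-type ones, had log2 CPM values of 6.83 and 6.84 in MCF10A pCDH-empty, 7.01 and 7.07 in MCF10A pCDH-HOTAIR, 7.02 and 6.74 in DCIS.COM pCDH-empty and 6.83 and 6.78 in DCIS.COM pCDH-HOTAIR. TIMP2, the inhibitor that takes part in the activation of MMP2, was at 7.08 and 7.19, 7.21 and 7.28, 4.78 and 4.52, and 4.84 and 4.74 in the same order. TIMP3, which binds to the matrix and also inhibits ADAM17, was at 6.80 and 6.70, 7.01 and 6.86, 9.07 and 8.86, and 8.63 and 8.80. All 3 were higher in both HOTAIR libraries than in both controls in MCF10A, by 0.21, 0.11 and 0.19 on the log2 scale (adjusted p = 0.706, 0.919 and 0.780). In DCIS.COM the groups of TIMP1 and TIMP2 overlapped, and TIMP3 was lower in both HOTAIR libraries, with a log2 difference of -0.25 (SE 0.097, adjusted p = 0.264), or -0.15 without DCIS.COM pCDH-empty 1.

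The next comparison asked which family genes differ with HOTAIR in MCF10A. No member was called by limma, nor by limma-voom on the recovered reads, where 0.0218% of all genes were called by limma. Of the 35 members, 8 (22.9%) had an unadjusted p under 0.05, against 7.28% of all genes. Among these, 6 were higher with HOTAIR, against 4.41% of all genes, and 2 were lower, against 2.88%. The members were MMP14, MMP19, ADAM12, ADAMTS2, ADAMTS4 and ADAMTS15 on the higher side and MMP7 and ADAM32 on the lower side. The median log2 difference over the 35 members was 0.16, against -0.00545 over all genes. Limma-voom gave 11 members at an unadjusted p under 0.05. The share of all genes by limma-voom is not given here, and the 7.28% is that of limma.

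ADAM12, a shedding protease whose product is raised in breast carcinoma, had the smallest p of the family in MCF10A. Its log2 CPM was 4.05 and 4.11 in MCF10A pCDH-empty and 4.56 and 4.56 in MCF10A pCDH-HOTAIR, and in DCIS.COM 5.33 and 5.27 with the empty vector and 5.21 and 5.09 with HOTAIR. The HOTAIR libraries lay above the controls in MCF10A and below them in DCIS.COM. The log2 difference was 0.48 (SE 0.078, unadjusted p = 0.000285, adjusted p = 0.155) in MCF10A and -0.15 (SE 0.078, adjusted p = 0.342) in DCIS.COM. Over the alternatives without a library left out the adjusted p in MCF10A ran from 0.0483 to 0.247, and the fold change of 1.40 was below the threshold of 1.5.

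ADAMTS15, a proteoglycan-cutting enzyme, was at 2.75 and 2.70 log2 CPM in MCF10A pCDH-empty and 3.41 and 3.31 in MCF10A pCDH-HOTAIR, a log2 difference of 0.63 (SE 0.157, adjusted p = 0.330). In DCIS.COM it was at 2.01 and 1.93 against 1.94 and 2.38, and the groups overlapped. ADAMTS2, a procollagen N-proteinase, was at 0.22 and 0.62 against 0.99 and 1.34 in MCF10A (34, 39, 37 and 49 reads, adjusted p = 0.647). In DCIS.COM it had 1 read in 1 control library and none in the other 3 libraries. MMP7, or matrilysin, a small MMP made by glandular epithelium, had 58 and 66 reads in MCF10A pCDH-empty and 29 and 27 in the less deep MCF10A pCDH-HOTAIR libraries. Its log2 CPM was 0.95 and 1.35 against 0.65 and 0.51 in MCF10A, a log2 difference of -0.57 (SE 0.159, adjusted p = 0.414). In DCIS.COM it was at 5.90 and 6.20 with the empty vector and 6.46 and 6.37 with HOTAIR, a log2 difference of 0.36 (SE 0.159, adjusted p = 0.291), or 0.21 (adjusted p = 0.607) without DCIS.COM pCDH-empty 1.

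In MCF10A the 2 HOTAIR libraries lay wholly above or below the 2 controls for 26 members (74.3%), against 47.2% of all genes, and in DCIS.COM for 21 members (60%), against 49.2% of all genes. In both lines and in the same direction this held for 10 members, against 12.2% of all genes. These were MMP2, MMP14, MMP15, MMP17, MMP24, MMP28, ADAM8, ADAM10, ADAM17 and ADAMTS7. In opposite directions it held for 8 members (22.9%), against 11.0% of all genes. ADAM12, ADAMTS4, ADAMTS9 and TIMP3 were higher with HOTAIR in MCF10A and lower in DCIS.COM. MMP19 is counted with them, though its side in DCIS.COM rests on 3 reads. MMP7, ADAM32 and ADAMTS13, which cuts von Willebrand factor, were lower in MCF10A and higher in DCIS.COM.

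Whether the effect of HOTAIR was unequal in the lines was tested for each gene. No member was called by limma or by limma-voom, where 0.0436% of all genes were called by limma, and 11 members (31.4%) had an unadjusted p under 0.05 by either tool, against 10.5% of all genes by limma. Those of limma included MMP19 and ADAMTS2, with at most 2 reads in any DCIS.COM library. The smallest adjusted p was that of ADAM12, with a log2 difference between the effects of -0.63 (SE 0.111, adjusted p = 0.168). ADAMTS4 followed with -1.46 (SE 0.316, adjusted p = 0.262). Without DCIS.COM pCDH-empty 1 there were 2 calls, ADAM12 and MMP28, and without DCIS.COM pCDH-empty 2 there were 13, when 4414 of all genes were called.

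For 18 members the unadjusted p was 0.05 or more in each line. Their log2 differences ran from -0.50 (ADAMTS13) to 0.44 (MMP16) in MCF10A and from -0.18 (ADAMTS3) to 0.52 (ADAMTS7) in DCIS.COM. MMP15, another membrane-type MMP, was lower in both HOTAIR libraries of each line, with log2 differences of -0.23 in MCF10A and -0.14 in DCIS.COM that did not pass the test. ADAM9 and ADAM15, the most abundant ADAM genes, had log2 differences of 0.01 and 0.02 in MCF10A, with 95% intervals of -0.21 to 0.23 and -0.17 to 0.22. In DCIS.COM these were 0.21 (-0.02 to 0.43) and -0.04 (-0.23 to 0.16). Without DCIS.COM pCDH-empty 1 the values in DCIS.COM were 0.05 for ADAM9, 0.08 for ADAM15, which thus changed sign, and -0.03 for MMP15, while ADAMTS7 was at 0.92 (adjusted p = 0.0222) and called.

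Between the lines more members were called than between the vectors, in comparisons that use the same libraries as the HOTAIR comparisons above. With the empty vector 27 of the 35 members (77.1%) were called, against 46.3% of all genes. Of these, 9 were higher in DCIS.COM (25.7%, against 22.5% of all genes) and 18 were lower (51.4%, against 23.8%). With the HOTAIR vector, in libraries that the first count did not use, 28 members (80%) were called, against 43.7% of all genes, 9 of them higher in DCIS.COM (against 22.0%) and 19 lower (against 21.7%). Called in both, and in the same direction, were 25 members, which is 92.6% of the calls with the empty vector and 89.3% of those with HOTAIR. Over all genes these shares were 82.9% and 87.8%, near those of the members, and 38.4% of all genes tested were called in both and in the same direction. ADAM19 and ADAM32 were called with the empty vector alone, and MMP17, ADAMTS4 and ADAMTS13 with HOTAIR alone. Every gene of the table passed 0.5 CPM in 2 or more libraries. Of the members, 8 met this through a single line and so had to differ between the lines. They were ADAMTS2, ADAMTS6, ADAMTS14, ADAMTSL4 and MMP19 in MCF10A, and ADAM23, ADAMTS1 and ADAMTS3 in DCIS.COM. The other 27 met it in each line, and of these 19 were called with the empty vector and 20 with HOTAIR, against 42.2% and 39.4% of the 12779 genes that met it in each line. Fewer cells with a transcript and less of it per cell cannot be told apart in these bulk libraries.

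**Figure D3:**
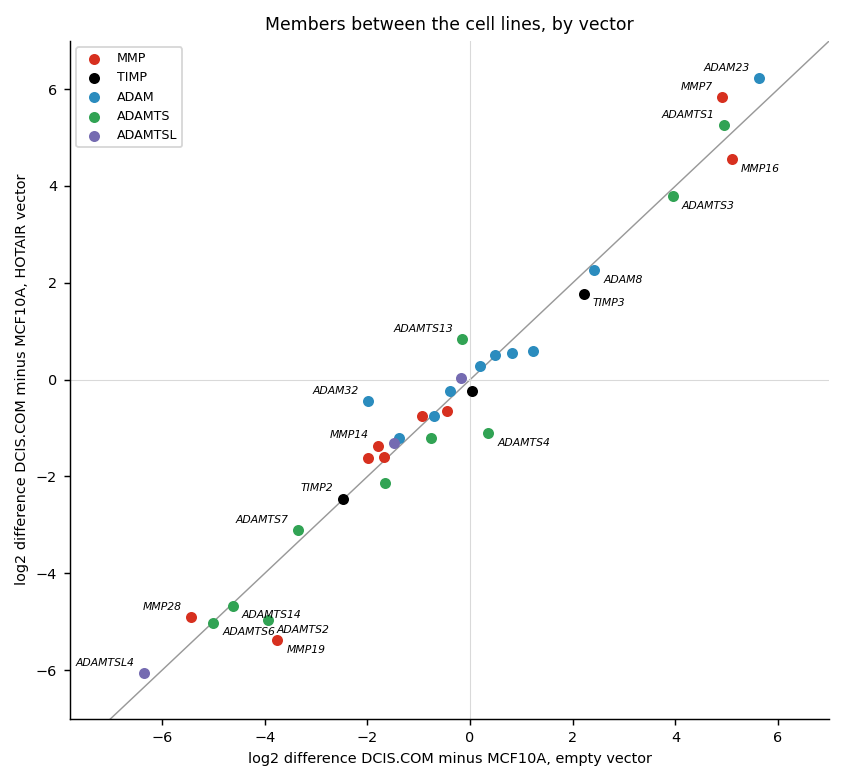
Log2 difference between DCIS.COM and MCF10A with the empty vector (horizontal axis) and with the HOTAIR vector (vertical axis) for the 35 genes, coloured by family; the grey line marks equal differences. The axes share no library, and values of genes with 0 to 3 reads in a group, such as ADAM23, ADAMTS1, ADAMTS2, ADAMTS14 and MMP19, depend on the constant added before the log.

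Of the 9 MMP genes, 6 were called lower in DCIS.COM with the empty vector and 7 with HOTAIR, and 2 were called higher with each. Over all genes 23.8% and 21.7% were called lower, and 22.5% and 22.0% higher. MMP19, counted among those called lower, reached the table through MCF10A, so that its calls were fixed by the filter. MMP28 had a log2 difference of -5.44 (SE 0.091, adjusted p = 6.02e-09) with the empty vector, 43.4-fold lower in DCIS.COM, and of -4.90, or 30.0-fold lower, with HOTAIR. MMP14 was 3.46-fold and 2.57-fold lower, and MMP2 was 3.95-fold and 3.08-fold lower, with the empty and the HOTAIR vector in that order. So the DCIS.COM HOTAIR libraries, though higher than their controls for these 3 genes, stayed below MCF10A by 1.36, 1.62 and 4.90 on the log2 scale for MMP14, MMP2 and MMP28, all called. MMP15 was at 4.36 in both MCF10A pCDH-empty libraries and at 2.78 and 2.57 in DCIS.COM pCDH-empty, 3.21-fold lower.

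MMP7 and MMP16 were the MMP genes higher in DCIS.COM. MMP7 had 1799 and 1972 reads in DCIS.COM pCDH-empty against 58 and 66 in MCF10A pCDH-empty, 29.9-fold higher on the log2 CPM scale (log2 difference 4.90, SE 0.159, adjusted p = 8.51e-08). With HOTAIR the difference was 5.83 on the log2 scale, or 57.0-fold. MMP16, a membrane-type MMP, was at -0.77 and -0.84 log2 CPM in MCF10A pCDH-empty, -0.77 and 0.03 in MCF10A pCDH-HOTAIR, 4.15 and 4.44 in DCIS.COM pCDH-empty and 4.20 and 4.16 in DCIS.COM pCDH-HOTAIR. Its log2 difference with the empty vector was 5.10 (SE 0.248, adjusted p = 6.70e-07), with 16 and 13 reads in MCF10A pCDH-empty. MMP19 had 96 reads over the MCF10A pCDH-empty libraries and 3 over the DCIS.COM pCDH-empty libraries, a ratio of 31.5 (95% exact counting interval 10.5 to 155).

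The inhibitors differed from each other between the lines. TIMP2 was 5.60-fold lower in DCIS.COM (log2 difference -2.49, SE 0.096, adjusted p = 1.97e-07) and TIMP3 was 4.64-fold higher (log2 difference 2.21, SE 0.097, adjusted p = 3.74e-07) with the empty vector. TIMP1 had a log2 difference of 0.04 (95% interval -0.17 to 0.26) with the empty vector and -0.23 (-0.44 to -0.02, adjusted p = 0.0559) with HOTAIR.

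Per length of transcript, the MMP genes together were at 104 CPM per kb ± 2.19 (SD, n = 2) in MCF10A pCDH-empty and 79.7 ± 9.86 (SD, n = 2) in DCIS.COM pCDH-empty, and at 116 and 103 in the HOTAIR groups of these lines. In MCF10A pCDH-empty, MMP28 made up 44.2% to 45.8% and MMP14 37.0% to 37.1% of this sum, and MMP7 1.62% to 2.10%. In DCIS.COM pCDH-empty, MMP7 made up 73.5% to 75.9%, MMP14 13.5% to 14.6% and MMP28 1.14% to 1.54%. The leading MMP transcript was therefore MMP28 in every MCF10A library and MMP7 in every DCIS.COM library, and with HOTAIR the shares of MMP28 in MCF10A (44.5% to 45.9%) and of MMP7 in DCIS.COM (73.3% to 73.7%) differed little from these. The 3 TIMP genes were at 210 CPM per kb ± 1.63 (SD, n = 2) in MCF10A pCDH-empty and 270 ± 33.1 (SD, n = 2) in DCIS.COM pCDH-empty. TIMP1 led in all libraries, with 70.3% to 70.6% in MCF10A pCDH-empty and 56.3% to 57.6% in DCIS.COM pCDH-empty. The next was TIMP2 in MCF10A pCDH-empty (17.8% to 19.0%) and TIMP3 in DCIS.COM pCDH-empty (39.9% to 41.2%). Over all 35 genes with the empty vector, ADAM9, ADAM15 and TIMP1 were the highest in MCF10A, at 205, 161 and 148 CPM per kb, and TIMP1, TIMP3 and ADAM15 in DCIS.COM, at 154, 109 and 99.6 CPM per kb. ADAM15 and TIMP3 in DCIS.COM pCDH-empty had SDs of 12.1 and 10.8. TIMP3 was above ADAM15 in each library of this group, at 116.7 against 108.2 and at 101.4 against 91.09 CPM per kb. Their order was not tested.

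**Figure D4:**
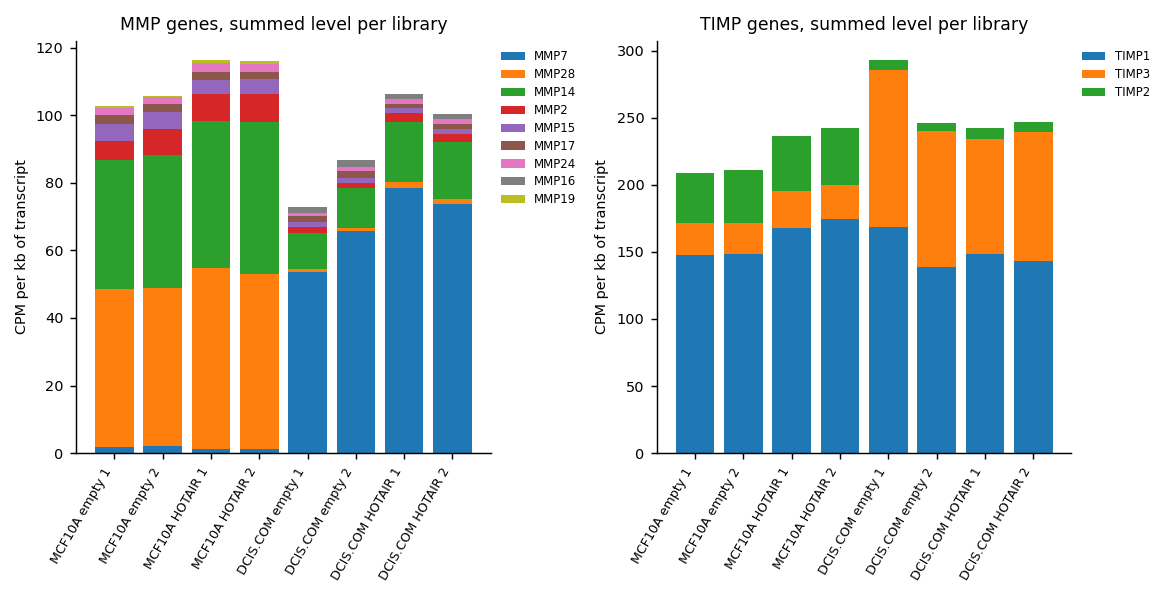
Level in CPM per kb of transcript (vertical axis) of the MMP genes (left) and TIMP genes (right), stacked by gene for each of the 8 libraries. MMP28 and MMP14 fill most of the MMP bars in MCF10A and MMP7 those of DCIS.COM, while TIMP1 is the largest block of every TIMP bar and the next is TIMP2 in MCF10A and TIMP3 in DCIS.COM.

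Of the 10 ADAM genes, 7 were called between the lines with the empty vector, against 46.3% of all genes, 4 of them higher in DCIS.COM (22.5% of all genes) and 3 lower (23.8%). ADAM23, which is counted here and reached the table through DCIS.COM, at 0 reads in MCF10A, had 197 reads over the DCIS.COM pCDH-empty libraries, at least 66.7-fold higher when 3 reads over the MCF10A group are taken as the floor. ADAM8, an ADAM of leukocytes and some carcinomas, was 5.36-fold higher in DCIS.COM, and ADAM12 was 2.33-fold higher. ADAM9 was 2.63-fold lower in DCIS.COM and ADAM15 was 1.62-fold lower. ADAM10 and ADAM17 were not called, with folds below 1.5 in opposite directions. The ADAM genes summed to 407 CPM per kb ± 2.48 (SD, n = 2) in MCF10A pCDH-empty and 223 ± 1.34 (SD, n = 2) in DCIS.COM pCDH-empty.

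Of the 10 ADAMTS genes, 8 were called between the lines with the empty vector, 2 higher in DCIS.COM and 6 lower, against 46.3% of all genes. Of these 8, ADAMTS1, ADAMTS2, ADAMTS3, ADAMTS6 and ADAMTS14 reached the table through the line where they were high, so that their calls were fixed by the filter. ADAMTS1, which cuts versican and aggrecan, had 208 reads over DCIS.COM pCDH-empty and 3 over MCF10A pCDH-empty, a ratio of 70.5 (95% exact counting interval 23.8 to 344). Its reads per library were 2, 1, 0 and 1 in the MCF10A libraries, controls first, and 108, 100, 128 and 114 in the DCIS.COM libraries. ADAMTS3, a procollagen N-proteinase, was at -1.92 and -2.44 log2 CPM in MCF10A pCDH-empty, -2.51 and -1.88 in MCF10A pCDH-HOTAIR, 1.55 and 1.98 in DCIS.COM pCDH-empty and 1.54 and 1.64 in DCIS.COM pCDH-HOTAIR, a log2 difference with the empty vector of 3.95 (adjusted p = 8.85e-06).

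The procollagen N-proteinases ADAMTS2 and ADAMTS14 went the other way. ADAMTS14 had 71, 52, 47 and 66 reads in the MCF10A libraries, controls first, and 0, 1, 2 and 1 in the DCIS.COM libraries. The ratio over the controls was 121 (95% exact counting interval 21.3 to 4820). ADAMTS2 had 73 reads over MCF10A pCDH-empty and 1 over DCIS.COM pCDH-empty, a ratio of 71.8 (12.5 to 2880). These intervals cover counting error alone.

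ADAMTS6, a secreted metalloproteinase of the matrix, was at 3.60 and 3.63 log2 CPM in MCF10A pCDH-empty, 3.95 and 4.0 in MCF10A pCDH-HOTAIR, -1.19 and -1.59 in DCIS.COM pCDH-empty and -1.29 and -0.79 in DCIS.COM pCDH-HOTAIR. Its log2 difference with the empty vector was -5.0 (SE 0.211, adjusted p = 3.07e-07), with 11 and 7 reads in DCIS.COM pCDH-empty. ADAMTSL4, which binds fibrillin microfibrils, was at 5.00 and 4.85, 5.10 and 4.97, -1.57 and -1.30, and -0.72 and -1.32 in the same order, a log2 difference of -6.36 (SE 0.212, adjusted p = 9.57e-08), with 992 and 768 reads in the MCF10A controls against 8 and 9 in those of DCIS.COM. ADAMTSL4 lies opposite MCL1, MMP19 opposite TMEM198B and ADAM17 opposite IAH1 on the other strand, and whether counting used strand is not given in the sources used here, so that reads of these pairs cannot be told apart. Both ADAMTS6 and ADAMTSL4 reached the table through MCF10A, so that their calls between the lines were fixed by the filter. Of the ADAMTSL genes, ADAMTSL5 was also lower in DCIS.COM (2.81-fold) and ADAMTSL3 was not called.

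**Figure D5:**
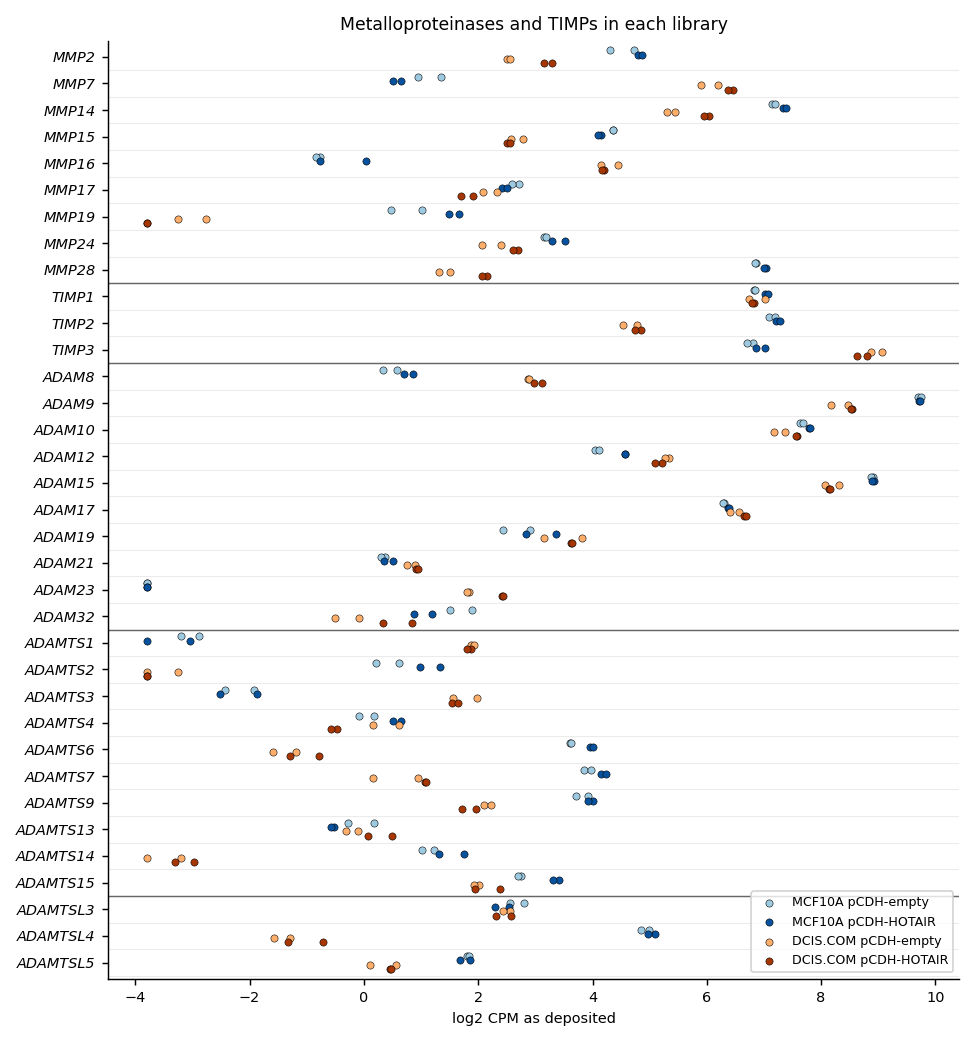
Deposited log2 CPM (horizontal axis) of the 35 genes in the 8 libraries, coloured by group. Points at -3.80 are libraries with 0 reads, as for ADAM23 in all 4 MCF10A libraries and MMP19 in both DCIS.COM pCDH-HOTAIR libraries.

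Genes that work with these enzymes were counted from lists of their regulators and substrates. With HOTAIR no gene of the lists was called by limma in either line. At an unadjusted p under 0.05, 9.08% of all genes were higher and 8.41% lower in DCIS.COM, and 4.41% higher and 2.88% lower in MCF10A, which are the shares to read the following counts against. Of 26 activators and inhibitors outside the families (such as plasminogen activators and furin-type convertases), 6 were higher and 0 lower at an unadjusted p under 0.05 in DCIS.COM, with a median log2 difference of 0.0382, and 2 were higher and 2 lower in MCF10A, with a median of 0.0178. Of 29 substrates shed by ADAM10 or ADAM17, 4 were higher and 5 lower in DCIS.COM and 6 were higher and 4 lower in MCF10A. Of 10 iRhoms and tetraspanins, which steer ADAM17 and ADAM10, 1 was higher and 0 lower in DCIS.COM, and 1 was higher and 2 lower in MCF10A. Of 9 AP1 subunits, 1 was higher and 1 lower in DCIS.COM and 1 was higher in MCF10A. Of 7 other zinc endopeptidases, 1 was lower in DCIS.COM and none passed in MCF10A. The medians of the last 4 lists lay between -0.18 and 0.18 in both lines.

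Between the lines with the empty vector, 16 of the 26 activators and inhibitors were called, 7 higher in DCIS.COM and 9 lower, against 46.3% of all genes. Of the shed substrates 22 of 29 were called, 13 higher and 9 lower, and of the AP1 subunits 8 of 9, 2 higher and 6 lower. All 7 other zinc endopeptidases were called, 3 higher and 4 lower, and 5 of the 10 iRhoms and tetraspanins, 3 higher and 2 lower. List genes that reached the table through a single line had to differ between the lines. They were not counted apart here.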

How the data were processed

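The deposited values are log2 CPM, made by the authors with edgeR from featureCounts counts on hg19 (per the labels and the study's methods); each gene listed reaches more than 0.5 CPM in 2 libraries or more. Their values rise in steps from a shared constant of 0.0717 CPM, which gave back whole reads for 100% of values (within 0.01 reads). The 8 libraries were grouped by their titles, 2 per group. The labels do not say whether replicates were separate cultures, so that p-values measure the spread between these libraries, which may be technical. With 2 against 2 an exact permutation test cannot go below p = 0.333, and limma 3.58.1 in R 4.3.3 was used (4 group means, mean-variance trend, all 13771 genes, Benjamini-Hochberg adjustment). The call was an adjusted p under 0.05 with a fold change of at least 1.5, and for the interaction the adjusted p alone. Floors were 3 reads over a group, and ratios of few reads have 95% exact intervals of counting error. GENCODE 44, lifted to GRCh37, gave each position and the length of the canonical transcript. RefSeq promoters were found for 23 of 35 members.

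Named with values in every library were MMP2, MMP14, MMP28, the TIMPs, members called or with an unadjusted p under 0.05 in a HOTAIR comparison, and the 5 largest differences in each direction between lines with the empty vector. Others were named as examples. The members and lists were chosen with earlier results of these data known. Alternatives were a constant of 1 CPM, a mean CPM of at least 2 (12273 genes, 26 members), median centring, quantile normalization, no trend, the replicate block, limma-voom on recovered reads, a GC loess (span 0.4), other fold thresholds, each line alone and each library left out. How reads on overlapping genes were assigned is not given in the sources used here.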

Additional observations from a re-analysis of the deposited data

Results flagged for a closer look

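In 8 members the HOTAIR libraries lay wholly on one side of the controls in MCF10A and wholly on the other side in DCIS.COM, against 11.0% of all genes. The difference itself was tested with the interaction, and no member passed it. The log2 difference of the effects, DCIS.COM minus MCF10A, was 1.56 for ADAM32 (adjusted p = 0.302), 1.0 for ADAMTS13 (adjusted p = 0.430) and 0.93 for MMP7 (adjusted p = 0.305). It was -1.62 for MMP19 (adjusted p = 0.322), -1.46 for ADAMTS4 (adjusted p = 0.262) and -0.63 for ADAM12 (adjusted p = 0.168). For ADAMTS9 it was -0.48 (adjusted p = 0.450), and for TIMP3 -0.44 (adjusted p = 0.413). MMP19 had at most 2 reads in any DCIS.COM library, so that its direction there rests on 3 reads. Without DCIS.COM pCDH-empty 1, which stood apart, the values for ADAM12, ADAMTS4 and TIMP3 were -0.60, -1.23 and -0.34, and ADAM12 then passed the test (adjusted p = 0.0443).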

How the results depend on the processing

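The count of members called with HOTAIR in DCIS.COM, 1 (MMP14), was 2 with a GC correction and with a mean CPM of at least 2, where MMP28 joined it, and 0 without the trend, with the line fitted alone and at a log2 fold change of at least 1.5. With each library left out, a lone sample being assumed to vary like the other groups, it ran from 0 to 4. It was 0 without either HOTAIR library, 2 (MMP28 and ADAMTS7) without pCDH-empty 1 and 4 (MMP2, MMP14, MMP28 and ADAMTS4) without pCDH-empty 2, when the calls over all genes rose from 12 to 1403. In the interaction the count of 0 ran from 0 to 13 with a library left out, with 2 without DCIS.COM pCDH-empty 1 and 13 without DCIS.COM pCDH-empty 2. The cause was not tested, except that the CPM minimum and the left-out libraries reduce the genes or samples by construction. The count in MCF10A was 0 in all settings run. Between the lines the counts stayed within 21 to 28 where the 1.5-fold threshold was kept. At a log2 fold change of at least 1.5 they were lower with both vectors, with 18 for the HOTAIR vector. Without a fold threshold they were higher with both vectors. No called difference changed sign, while the members higher with HOTAIR ran from 21 to 25 of 35 in DCIS.COM and from 23 to 27 in MCF10A where all 35 were tested. The replicate numbers share a number only: correlations of deviations ran from -0.016 to 0.066, and the fit with the replicate block gave 0, 1, 0, 27 and 28 calls in the 5 comparisons, as without it. Values under about 20 reads, as for MMP16, MMP19, ADAMTS1 to ADAMTS3, ADAMTS6, ADAMTS14 and ADAMTSL4 in one line, are limited by depth. Over the alternatives without a library left out, the difference between lines with the empty vector moved for such genes. On the log2 scale it ran from 3.71 to 5.36 for MMP16, from -5.21 to -3.26 for ADAMTS6 and from -6.59 to -4.52 for ADAMTSL4.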
